A study of Mus musculus with 6 samples.

Results

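The genes described here are 10 genes of the defence against oxidants in cultured neural precursor cells of the mouse: the transcription factor gene Nfe2l2 (NRF2), the gene of its inhibitor Keap1, the thioredoxin genes Txn1, Txnrd1 and Txnrd2, the peroxiredoxin genes Prdx1 and Prdx6, the sulfiredoxin gene Srxn1, and the reductase genes Nqo1 and Cbr3. They were found among the non-control probes of 6 arrays through the RefSeq accessions of the probes, since the files carry no gene names. All 10 were measured, by 14 of the 55681 probes, and they are 10 of the 24225 features tested. Precursor cells were isolated from the dentate gyrus, the part of the hippocampus where new neurons arise, of male C57BL6/JRj mice 8 weeks old, and grew as an attached layer in medium with B27 and 20 ng/ml each of EGF and bFGF. After 2 days in plates the cultures received human LDL, the lipoprotein that carries cholesterol in blood (3 arrays), or saline (3 arrays), and RNA was taken 48 h later. The dose was 100 ug/ml by the treatment protocol, while the sample descriptions write another unit of volume. No allele or transgene is named for either group. The labels speak of 3 independent experiments without saying which animals or cultures they used, so p-values measure the spread between these samples only.

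NRF2 is a transcription factor that KEAP1 holds in the cytoplasm and marks for degradation. Oxidants and electrophiles modify cysteines of KEAP1, after which NRF2 accumulates, enters the nucleus and, paired with a small MAF protein, drives genes whose regulatory regions carry antioxidant response elements. Peroxiredoxins reduce peroxides with a reactive cysteine, thioredoxin reduces them again, thioredoxin reductase passes electrons to thioredoxin from NADPH, and sulfiredoxin rescues typical peroxiredoxins such as PRDX1 whose cysteine has been oxidized too far. NQO1 and CBR3 reduce quinones and carbonyl compounds.

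The promoter windows below, from RefSeq on the build GRCm38.p6, run from 250 bases before an annotated start to 50 bases after it. Those of Srxn1, Txnrd1 and Prdx1 are shown because these genes had the largest log2 fold changes among the 10, and that of Nqo1 because this gene is a textbook target of NRF2. Capitals mark matches, on either strand, to TGACNNNGC, the core letters of the antioxidant response element, or to its variant TGAGNNNGC. Of the 3 windows that RefSeq gives for Txnrd1, the one that holds a match is printed.
Srxn1, chr2:152105274-152105573, plus strand: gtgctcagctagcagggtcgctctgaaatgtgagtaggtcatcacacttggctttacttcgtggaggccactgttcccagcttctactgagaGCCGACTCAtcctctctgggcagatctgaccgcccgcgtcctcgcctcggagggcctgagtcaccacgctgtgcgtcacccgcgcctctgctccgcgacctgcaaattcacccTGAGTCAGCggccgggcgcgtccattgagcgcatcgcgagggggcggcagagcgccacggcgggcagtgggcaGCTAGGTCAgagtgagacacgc
Txnrd1, chr10:82858956-82859255, plus strand: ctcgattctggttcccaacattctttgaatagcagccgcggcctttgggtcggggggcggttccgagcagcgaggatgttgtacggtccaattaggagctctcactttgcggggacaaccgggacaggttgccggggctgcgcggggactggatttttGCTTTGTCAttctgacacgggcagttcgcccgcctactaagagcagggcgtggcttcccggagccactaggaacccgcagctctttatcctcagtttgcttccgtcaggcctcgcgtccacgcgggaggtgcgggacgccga
Prdx1, chr4:116685349-116685648, plus strand: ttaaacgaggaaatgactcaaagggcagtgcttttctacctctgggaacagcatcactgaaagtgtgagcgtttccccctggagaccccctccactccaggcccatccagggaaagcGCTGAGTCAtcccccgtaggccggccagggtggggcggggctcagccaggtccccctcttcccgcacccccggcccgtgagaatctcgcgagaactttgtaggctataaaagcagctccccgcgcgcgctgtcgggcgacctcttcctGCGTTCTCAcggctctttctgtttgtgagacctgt
Nqo1, chr8:107403156-107403455, minus strand: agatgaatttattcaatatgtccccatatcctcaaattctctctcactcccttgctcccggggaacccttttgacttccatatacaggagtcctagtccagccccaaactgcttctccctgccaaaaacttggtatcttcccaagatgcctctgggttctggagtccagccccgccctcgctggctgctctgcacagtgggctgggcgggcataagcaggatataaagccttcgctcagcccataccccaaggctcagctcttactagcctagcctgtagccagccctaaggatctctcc

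Windows were found for 9 of the 10 genes. TGACNNNGC was present for 4 genes, Nfe2l2, Srxn1, Prdx1 and Txnrd1, and in 12.4% of all 32851 windows of this length. TGAGNNNGC was present for 2 genes, Srxn1 and Prdx1, and in 17.6% of all windows. Either form was present for 4 of the 9 genes and in 27.8% of all windows. Counted by window, as the shares of all windows are, TGACNNNGC was in 4 of the 11 windows of these genes, TGAGNNNGC in 2 and either in 4. The Srxn1 window held TGAGTCAGC at bases 206 to 214, GCCGACTCA at bases 93 to 101 and GCTAGGTCA at bases 279 to 287, counted from the 5′ end. The Prdx1 window held GCTGAGTCA at bases 118 to 126, and GCGTTCTCA at bases 266 to 274. The AP-1 motif TGACTCA was present, on either strand, in the windows of Srxn1 and Prdx1 (2 matches each) and in 5.2% of all windows. It overlapped the capitals at bases 206 to 212 of the Srxn1 window and at bases 120 to 126 of the Prdx1 window. A match is only a run of letters, and the windows of Txn1, Txnrd2, Keap1, Nqo1 and Cbr3 did not hold these letters. Bases outside the windows were not searched, so a window without a match does not show that a gene lacks the element.

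The share of probes well above background ran from 55.9% to 66.9%, and precision is limited by having 3 arrays a group. All 10 of 10 neural precursor markers, Nes, Sox2 and Pax6 among them, were well above background on all 6 arrays. So were 4 of 6 neuronal, 6 of 6 astrocyte, 6 of 6 oligodendrocyte, 4 of 6 microglial and 3 of 6 vascular markers, while Dcx and Stmn2 of the neuronal, P2ry12 of the microglial and Cdh5 and Pdgfrb of the vascular markers were so on no array. The summed signal of the 6 astrocyte markers ran from 3.11 to 3.45 with LDL and from 3.52 to 4.01 with saline, each on a linear scale in units of the array's 75th percentile. That of the 3 vascular markers measured ran from 13.58 to 14.29 with LDL and from 14.33 to 15.03 with saline. The ranges of the 2 groups did not overlap for these lists, and did for the other 4. Among all single features, 14.6% had groups that did not overlap in either direction. A sum on a linear scale mostly follows its brightest markers. Gfap, an astrocyte filament gene, was the marker that passed, with a log2 fold change of 1.35 (adjusted p = 0.0225 in limma), against the direction of its list's sum. The part of these markers in the results below was not tested. In cultures measured in bulk, fewer cells of a type and less RNA per cell cannot be told apart.

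The comparison asked whether these genes differ after LDL. None of the 10 passed an adjusted p of 0.05 in limma, a test that called 29 of 24225 features (0.12%), 3 of them higher (0.0124%) and 26 lower (0.107%). That split was 8 higher and 22 lower with median scaling, and 7 higher and 27 lower with the authors' values. Without adjustment, 3 of the 10, Srxn1, Prdx1 and Txnrd1, had a p below 0.05, all with a higher signal after LDL, against 7.46% of all features, 2.96% higher and 4.5% lower. For 5 of the 10, Srxn1, Txnrd1, Prdx1, Keap1 and Nfe2l2, every LDL array lay above every saline array, which held for 5.82% of all features, and for 0 of the 10 did every LDL array lie below, against 8.77% of all features. The median log2 fold change was 0.20 over the 10 genes and -0.03 over all features. An exact two-sided permutation test of 3 arrays against 3 cannot go below p = 0.1, which these 5 genes reached. All values below are normalized log2 signals, in which 0 stands for the 75th percentile of an array's processed signals, and fold changes are LDL minus saline on that scale. Levels of different genes come from different probes and are not compared.

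**Figure D1:**
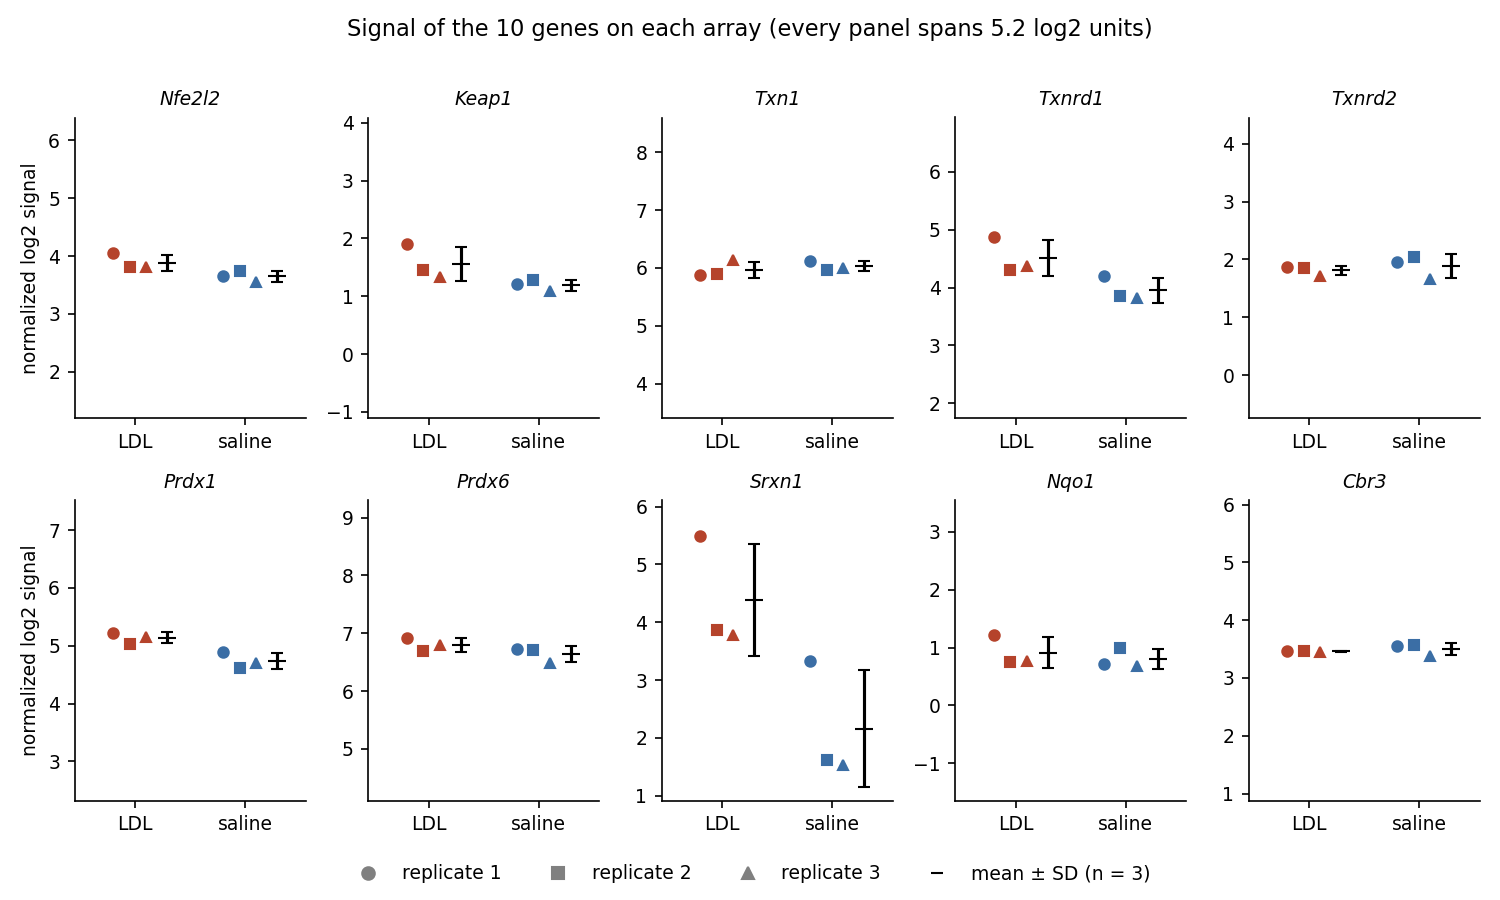
Normalized log2 signal of the 10 genes (vertical axis, every panel spanning 5.2 log2 units) on the 3 LDL arrays (red, left) and the 3 saline arrays (blue, right), with marker shapes for replicates 1 to 3 and the mean ± SD beside them. The LDL arrays of Srxn1 sit between 3.78 and 5.49 and its saline arrays between 1.53 and 3.33, while the arrays of Txn1, Txnrd2, Prdx6, Nqo1 and Cbr3 overlap.

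Among the regulators, Nfe2l2 had 4.05, 3.80 and 3.80 on LDL arrays 1 to 3, against 3.66, 3.74 and 3.55 on saline arrays 1 to 3. The groups did not overlap, but the lowest LDL array and the highest saline array were close. Its means were 3.89 ± 0.14 with LDL and 3.65 ± 0.10 with saline (SD, n = 3 each), a log2 fold change of 0.23 (SE 0.11, 95% interval -0.04 to 0.50, adjusted p = 0.725 in limma), and 0.15 without LDL replicate 1. Within row 1 of the slide, with 2 arrays of each group, it was 0.22, and in row 2, with 1 of each, 0.26. Keap1 had 1.90, 1.46 and 1.33 on the LDL arrays, against 1.21, 1.28 and 1.09 on the saline arrays. LDL replicate 1 stood highest, and the other LDL arrays lay just above the saline arrays. The log2 fold change of Keap1 was 0.37 (SE 0.16, 95% interval -0.01 to 0.75, adjusted p = 0.677), and 0.21 without LDL replicate 1. It was 0.44 within row 1 and 0.24 in row 2. The signal of both regulator genes is that of their mRNA, whereas NRF2 is known to be controlled largely at the level of the protein.

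In the thioredoxin system the groups separated for the cytosolic reductase and overlapped for thioredoxin itself and for the mitochondrial reductase. Txnrd1, which encodes the cytosolic thioredoxin reductase, a selenoprotein, had 4.87, 4.31 and 4.37 on the LDL arrays, against 4.20, 3.85 and 3.81 on the saline arrays. In each group replicate 1 was the highest array, and the lowest LDL array lay above the highest saline array. The means were 4.52 ± 0.31 with LDL and 3.96 ± 0.22 with saline, a log2 fold change of 0.56 (SE 0.19, 95% interval 0.12 to 1.00, adjusted p = 0.554), or 1.47-fold. It was 0.56 within row 1 and 0.56 in row 2, and 0.38 without LDL replicate 1.

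Txn1, the cytosolic thioredoxin, had 5.87, 5.89 and 6.13 on the LDL arrays, against 6.13, 5.96 and 5.99 on the saline arrays. The groups overlapped over most of their range. LDL minus saline was -0.06 on the log2 scale (95% interval -0.33 to 0.21, adjusted p = 0.941), with -0.16 within row 1 and 0.14 in row 2. Txnrd2, the mitochondrial thioredoxin reductase, had 1.86, 1.85 and 1.72 on the LDL arrays, against 1.95, 2.05 and 1.66 on the saline arrays, with the lowest and the highest array both in the saline group. The difference of the means was -0.08 (95% interval -0.38 to 0.23, adjusted p = 0.934), with -0.14 within row 1 and 0.06 in row 2. The difference in response between Txnrd1 and the other 2 genes was not tested.

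Srxn1, the sulfiredoxin gene, had the largest difference of the 10. It had 5.49, 3.87 and 3.78 on LDL arrays 1 to 3, against 3.33, 1.62 and 1.53 on saline arrays 1 to 3. Both groups had the same form, with replicate 1 well above replicates 2 and 3, and every LDL array lay above every saline array. The processed signals behind these values were 43168, 12288 and 13243 with LDL, against 7651, 2246 and 2742 with saline. The means were 4.38 ± 0.96 with LDL and 2.16 ± 1.01 with saline, a log2 fold change of 2.22 (SE 0.62, 95% interval 0.74 to 3.70, adjusted p = 0.494), or 4.66-fold, and 0.066% of all features had a higher log2 fold change. The SD within each group was the widest of the 10 genes. With the replicate number as a block the SE was 0.10 (adjusted p = 0.043 in limma), but the labels tie no number to a shared experiment. The log2 fold change was 2.21 within row 1 and 2.25 in row 2. It was 1.66 without LDL replicate 1 and 2.80 without saline replicate 1.

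Prdx1, a peroxiredoxin of the cytosol that SRXN1 can repair, had 5.23, 5.04 and 5.15 on the LDL arrays, against 4.89, 4.62 and 4.69 on the saline arrays. The groups did not overlap, and the spread within each was small. The means were 5.14 ± 0.09 with LDL and 4.73 ± 0.14 with saline, a log2 fold change of 0.40 (SE 0.11, 95% interval 0.14 to 0.67, adjusted p = 0.494), or 1.32-fold. On a dimmer second probe the difference was 0.51 (95% interval 0.14 to 0.89), also with groups that did not overlap. Within slide row 1 the log2 fold change of the brighter probe was 0.38, and in row 2 it was 0.46.

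Prdx6, the peroxiredoxin with 1 reactive cysteine, which relies on glutathione rather than thioredoxin, was read by 4 probes. On the brightest it had 6.92, 6.68 and 6.79 with LDL, against 6.73, 6.70 and 6.49 with saline, so the groups overlapped. LDL exceeded saline by 0.16 on average (95% interval -0.12 to 0.43, adjusted p = 0.828), by 0.08 within row 1 and by 0.30 in row 2. The difference was 0.10 without LDL replicate 1 and 0.08 without saline replicate 3. The other 3 probes, from bright to dim, had log2 fold changes of 0.25, 0.27 and 0.44, and the groups did not overlap for the dimmest. All 4 values were positive, but their size differed between probes, and saline replicate 1 was the lowest array on these 3 probes, whereas on the brightest it was the highest saline array. Signal from the related gene Prdx6b cannot be separated here, since probe sequences were not used.

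**Figure D2:**
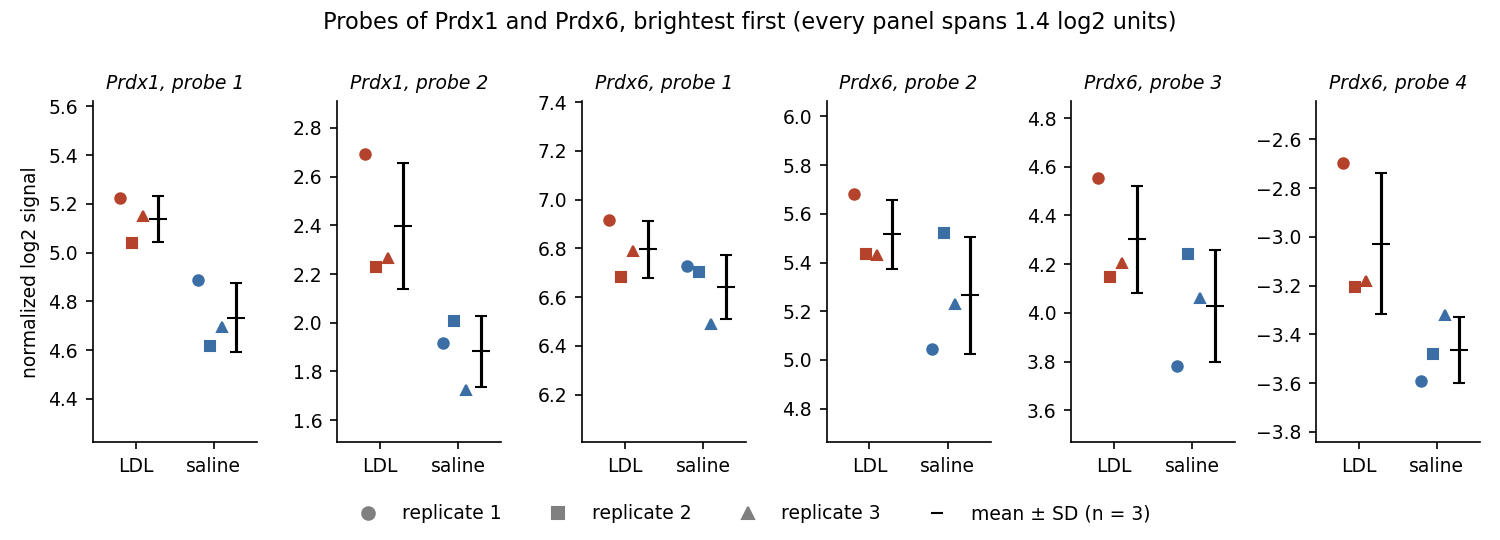
Normalized log2 signal (vertical axis, every panel spanning 1.4 log2 units) of the 2 Prdx1 probes and the 4 Prdx6 probes, brightest first, on the 3 LDL arrays (red, left) and 3 saline arrays (blue, right), with the mean ± SD. Both Prdx1 probes separate the groups, with log2 fold changes of 0.40 and 0.51, while 3 of the 4 Prdx6 probes have overlapping groups.

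The quinone and carbonyl reductases showed no such separation. Nqo1, which reduces quinones by transfer of 2 electrons, had 1.22, 0.75 and 0.77 on the LDL arrays, against 0.71, 0.99 and 0.68 on the saline arrays. LDL replicate 1 was the highest array, and saline replicate 2 exceeded the other LDL arrays. The means were 0.91 ± 0.27 with LDL and 0.80 ± 0.17 with saline, a log2 fold change of 0.12 (SE 0.16, 95% interval -0.27 to 0.50, adjusted p = 0.92), which turned to -0.04 without LDL replicate 1. It was 0.13 within row 1 and 0.09 in row 2. Cbr3, a carbonyl reductase, had 3.47, 3.46 and 3.45 on the LDL arrays, against 3.55, 3.58 and 3.38 on the saline arrays. The LDL arrays lay within the range of the saline arrays. LDL minus saline came to -0.04 (95% interval -0.28 to 0.19, adjusted p = 0.954), with -0.10 within row 1 and 0.07 in row 2.

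**Figure D3:**
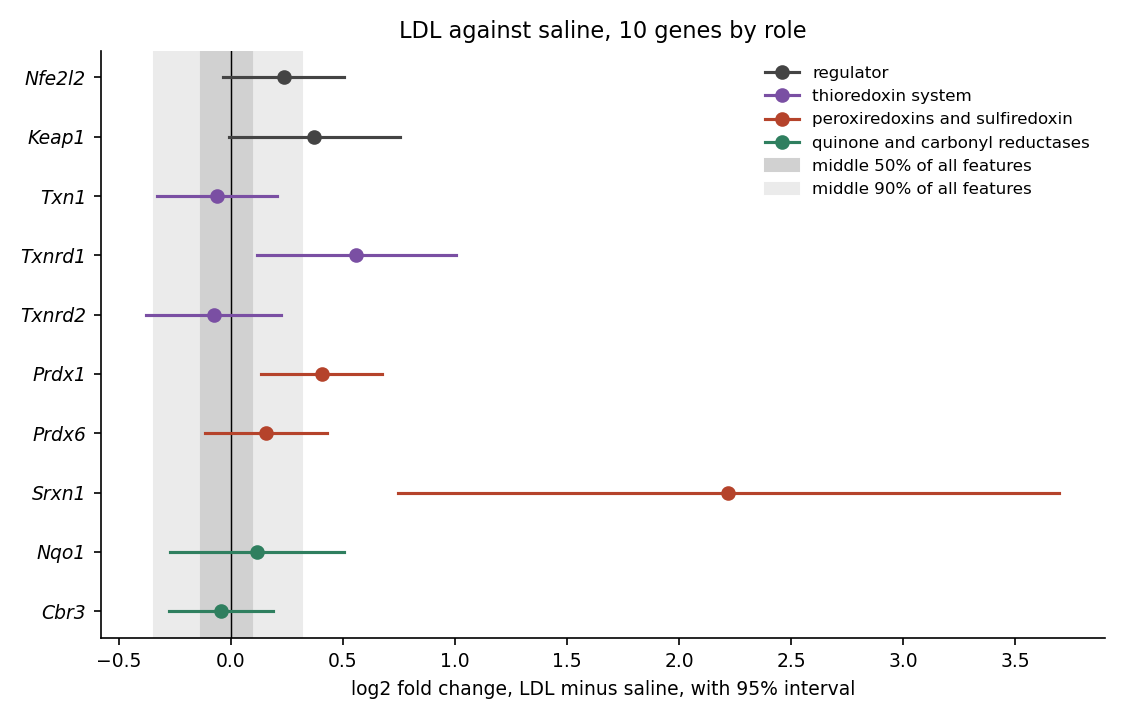
Log2 fold change, LDL minus saline (horizontal axis), with its 95% interval for the 10 genes, coloured by role, over bands from the 25th to the 75th and from the 5th to the 95th percentile of all 24225 features. Srxn1 at 2.22 lies far to the right, Txnrd1 at 0.56, Prdx1 at 0.40 and Keap1 at 0.37 lie right of the wider band, and Txn1, Txnrd2 and Cbr3 lie just below 0.

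By the median over the 10 genes, LDL replicate 1 was the highest array. The median deviation of the 10 genes from their means over all arrays was 0.28 there, 0.02 on LDL replicate 2 and 0.05 on LDL replicate 3, against -0.01, -0.03 and -0.22 on saline replicates 1 to 3. This did not hold for each gene. Txn1 had its lowest value on LDL replicate 1, and Txnrd2 and Cbr3 had their highest on a saline array. The median log2 fold change of the 10 genes was 0.12 without LDL replicate 1 and up to 0.25 with another array left out.

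Among named features, the 5 whose signal over the 6 arrays was most like that of Nqo1 by Pearson correlation were Wwp2 (r = 0.995), Wasf2, Mtpn, Zfp839 and Six4 (r = 0.975). The 6 arrays are shared by all these genes, and 134 of 14930 named features had r above 0.9. None of the 10 genes was among the 5. Within the 10, r with Nqo1 ran from -0.576 for Txn1 to 0.818 for Keap1.

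Of 20 other thioredoxin family, glutaredoxin, sestrin, methionine sulfoxide reductase and peroxiredoxin genes, 0 passed in limma in either direction. An unadjusted p below 0.05 was found for 1 gene, with a lower signal after LDL, against 4.5% of all features. The median log2 fold change was -0.03, the same to 2 decimals as over all features. Every LDL array lay above every saline array for 1 gene of the 20 and below for 3, against 5.82% and 8.77% of all features. Sesn3, a sestrin, had 0.94, 1.32 and 1.34 on the LDL arrays, against 1.64, 1.72 and 1.66 on the saline arrays, so LDL arrays were the lower ones, and its log2 fold change was -0.47 (adjusted p = 0.494). Msra, which repairs oxidized methionine, had -0.26, Sesn1 -0.16 and the mitochondrial glutaredoxin Glrx2 -0.18 (adjusted p between 0.67 and 0.801). The 3 probes of Glrx2 disagreed, with 0.21 on the second, and their mean gave 0.02. On the brightest the value was -0.12 without saline replicate 1 and -0.27 without saline replicate 3.

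Of 11 other quinone and carbonyl reductases measured, 0 passed in limma. The median was 0.11, and it was 0.03 without LDL replicate 1 and 0.02 without saline replicate 1. An unadjusted p below 0.05 with a higher signal after LDL was found for 1 gene, against 2.96% of all features. That gene was Cyb5r1, a member of the cytochrome b5 reductase family. It had 2.43, 1.75 and 1.63 on the LDL arrays, against 1.35, 1.01 and 0.64 on the saline arrays, so that LDL exceeded saline by 0.94 on the log2 scale (95% interval 0.32 to 1.55, adjusted p = 0.494), and its second probe had 0.99. The groups did not overlap on either probe. Por, which passes electrons to cytochromes P450, had 0.25, Cryz -0.19 and the aldo-keto reductase Akr1b8 -0.16 (adjusted p between 0.773 and 0.799). Por had 0.13 without LDL replicate 1, and Cryz -0.08 without saline replicate 2.

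Of 12 measured partners and rivals of NRF2, 0 passed in limma, with a median of 0.15 that was 0.09 without saline replicate 1. An unadjusted p below 0.05 with a higher signal after LDL was found for 2 genes, against 2.96% of all features. Sqstm1, the autophagy receptor p62 that binds KEAP1, had 2.26, 1.87 and 1.78 on the LDL arrays, against 1.07, 1.55 and 0.56 on the saline arrays. The groups did not overlap, and the log2 fold change was 0.91 (95% interval 0.30 to 1.53, adjusted p = 0.494). Mafg, a small MAF partner, had 0.46 (adjusted p = 0.58) on its brightest probe and 0.52 and 0.56 on the others, with no overlap on any of these probes. Maff, another small MAF gene, had 0.65 (adjusted p = 0.739) with overlapping groups, and 0.33 without LDL replicate 1. Btrc, of a ubiquitin ligase that acts on NRF2, had -0.19 (adjusted p = 0.773). Nfe2 and Nfe2l3 were not tested.

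Of 22 other classic targets of NRF2, among them genes of glutathione, iron and NADPH metabolism, 0 passed in limma. But 14 had an unadjusted p below 0.05 with a higher signal after LDL, and 1 with a lower one. The median was 0.58 and 0.41 without LDL replicate 1, and every LDL array lay above every saline array for 15 of the 22 and below for 1. Of all features, 2.96% had such a p with a higher signal and 4.5% with a lower one, 5.82% had every LDL array above and 8.77% every LDL array below. The list was chosen with earlier results of these data known, so these shares give no test of it. Hmox1, heme oxygenase, had 4.98, 3.74 and 3.63 on the LDL arrays, against 2.32, 2.36 and 2.04 on the saline arrays. LDL replicate 1 was the highest array, no LDL array reached down to the saline arrays, and the log2 fold change was 1.88 (adjusted p = 0.242). Gclc, of glutathione synthesis, had 0.99 (adjusted p = 0.243). Gstp1, a glutathione S-transferase, had 0.89 (adjusted p = 0.243) with groups that did not overlap. Idh1, the cytosolic isocitrate dehydrogenase, which makes NADPH, ran the other way, with -1.66, -1.93 and -1.70 on the LDL arrays, against -0.91, -0.33 and -0.36 on the saline arrays. Its log2 fold change was -1.23 (adjusted p = 0.114). It passed without saline replicate 1 (adjusted p = 0.0321) and with trended robust variances (adjusted p = 0.0404), while adjusted p ran up to 0.999 within slide row 1.

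Of 8 other antioxidant enzymes 0 passed in limma, with a median of 0.21. An unadjusted p below 0.05 with a higher signal after LDL was found for 3, against 2.96% of all features. Gpx1, a glutathione peroxidase, had 0.45, Sod3, the extracellular superoxide dismutase, 0.50, Gpx4, the peroxidase of lipid hydroperoxides, 0.41 and Sod1 0.20 (adjusted p between 0.536 and 0.779). For these 4 of the 8 every LDL array lay above every saline array, against 5.82% of all features. Sod1 had 0.10 without saline replicate 3. Of 12 selenoprotein genes other than Txnrd1 and Txnrd2, with the gene of a selenium-handling enzyme, Sephs2, among them, 0 passed. The median was -0.01, with 6 positive and 6 negative values. An unadjusted p below 0.05 was found for 2 with a higher signal and 1 with a lower one, against 2.96% and 4.5% of all features. Gpx1 and Gpx4 belong to both lists. Selenop, a secreted selenium carrier, had -0.42 and Selenos 0.23 (adjusted p between 0.67 and 0.725). Selenop had -0.27 without saline replicate 1, and -0.10 in slide row 2 with 1 array of each group.

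**Figure D4:**
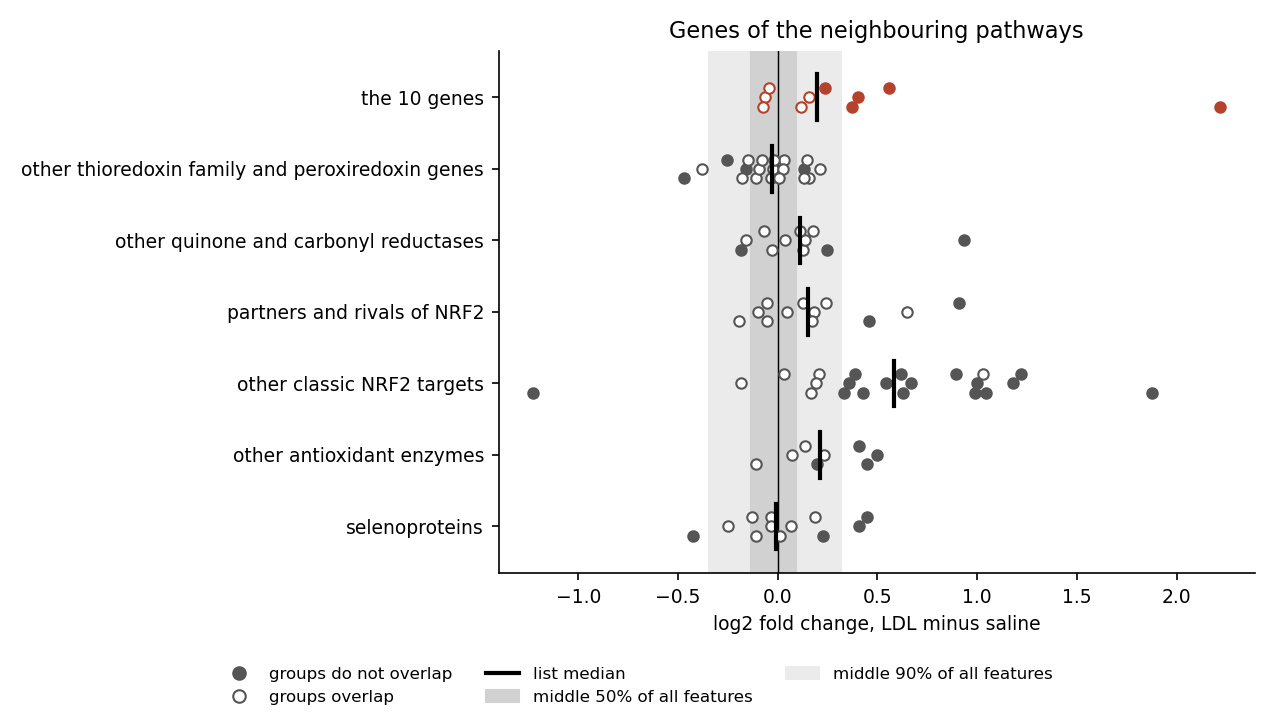
Log2 fold change, LDL minus saline (horizontal axis), of the 10 genes (red) and of each neighbouring list (grey), with filled points where the LDL and saline arrays do not overlap, open points where they do, and a bar at the list median. The other classic NRF2 targets have a median of 0.58, the 10 genes 0.20, and the other thioredoxin family and peroxiredoxin genes -0.03.

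The fold changes of the genes that separated the groups were compared over all settings. In the 19 alternatives Srxn1 lay between 1.66 and 2.80, Txnrd1 between 0.38 and 0.68, Prdx1 between 0.35 and 0.48, Keap1 between 0.21 and 0.49 and Nfe2l2 between 0.15 and 0.28. Their sign is no check, since groups separated on all arrays keep it with an array left out or within a slide row. The lowest value was that without LDL replicate 1 for 4 of them, and without saline replicate 2 for Prdx1.

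**Figure D5:**
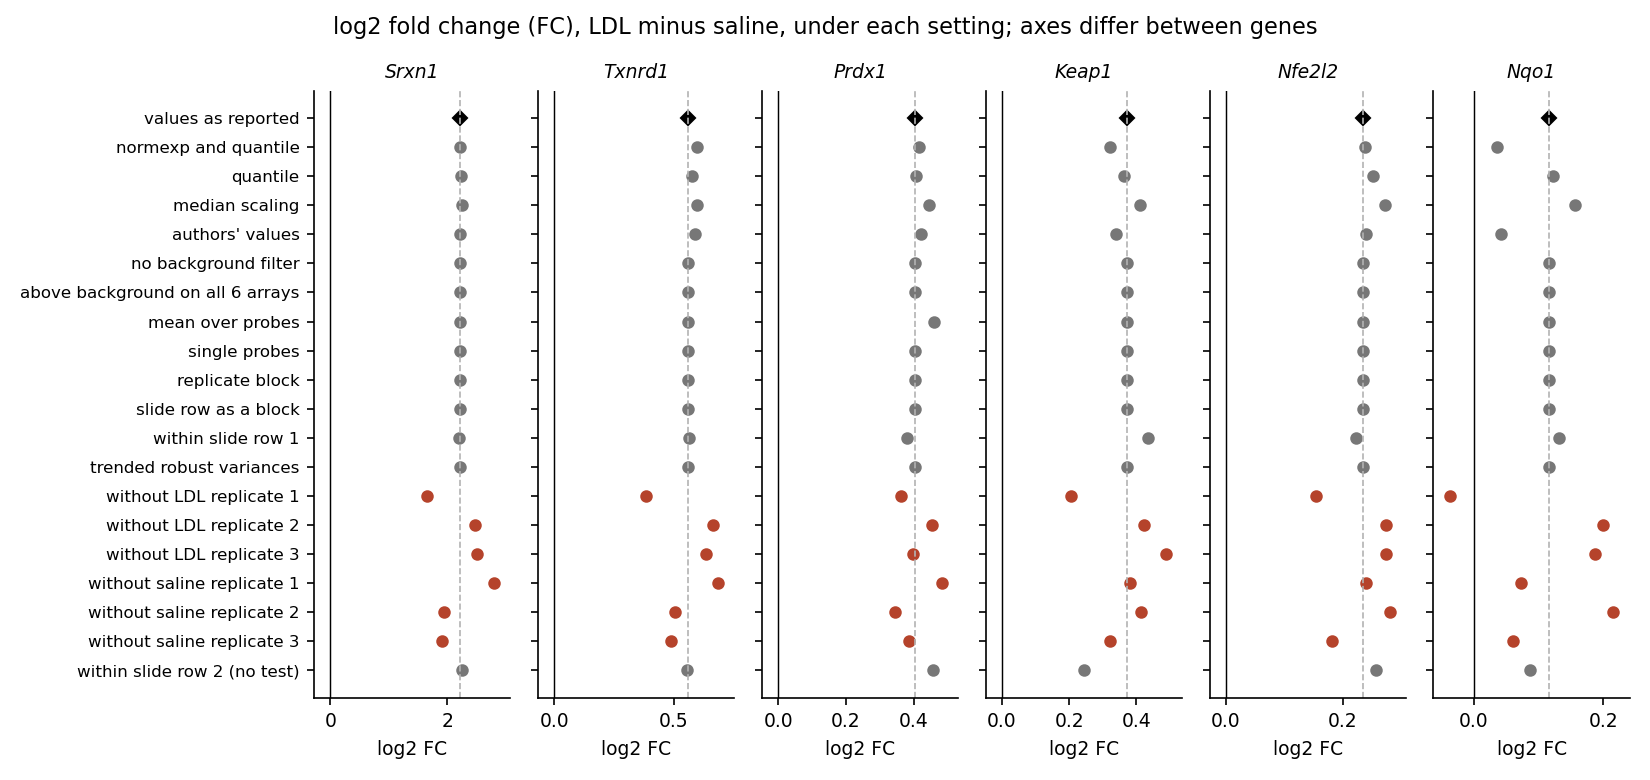
Log2 fold change, LDL minus saline (horizontal axis, a different range for each gene), of 6 genes under every setting (rows), with the values as reported as black diamonds and settings that leave out 1 array in red. Srxn1 runs from 1.66 to 2.80, and Nqo1 lies on both sides of 0, at -0.04 where LDL replicate 1 is left out.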

How the data were processed

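RNA of 6 samples was measured on 1-colour Agilent arrays of 1 slide, with cyanine-3 cRNA made from 100 ng of total RNA, per the labels' protocols. What the authors deposited per array are scanner intensity readings, linear in scale, from which Agilent Feature Extraction 10.7.3.1 had subtracted background and spatial trends within each array, per the file headers. Also listed in the submitters' processing notes are limma 3.34.9 and R 3.4.4. A table of log2 values of the same arrays was deposited too. These were aligned between arrays by a method not given in the sources used here, with column medians between 6.74 and 6.76 and r between 0.987 and 0.993 with the scanner values, across probes.

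The files hold no gene names, so probes were named by matching unversioned accessions to a RefSeq table of GRCm38.p6, which named 28331 of 55681 probes. The arrays are annotated on another build, and no gene coordinates were taken from that table. Control and outlier spots were left out (a probe with only flagged spots kept them, which touched none of the 10 genes), and no spot was saturated. A probe was tested if at least 50% of its spots were well above background on all 3 arrays of a group, and the brightest tested probe stood for a gene. The comparison used two-sided tests of limma 3.58.1 (functions lmFit and eBayes, R 4.3.3), with Benjamini-Hochberg adjustment over 24225 features. The files hold no mean spot signal, so the normexp alternative used the median. The fit was run on simulated data as a check of the code, and no result here rests on it. Figures were drawn with matplotlib 3.10.9. The 10 genes and all lists were chosen with earlier results of these data known. Named genes are the 10, up to 4 of each list with the smallest p, and the 5 most like Nqo1.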

Additional observations from a re-analysis of the deposited data

How the results depend on the processing

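Over 19 alternatives (normexp with quantile normalization, quantile or median scaling, a stricter background filter or none, the authors' values, mean over probes, single probes, replicate or slide row blocks, each slide row alone, trended robust variances, and 6 that each leave out 1 array), 18 gave a test. Of their 180 fold changes of the 10 genes, 177 kept their direction and their side of the threshold. But 68 of the 180 were equal to the reported value, as the block, variance, filter and single-probe settings do not move it. Nor does the mean over probes for a gene with 1 probe. For the 5 genes whose groups did not overlap, the direction was also fixed with 1 array left out and within slide row 1. The 177 are therefore not so many independent checks. The direction reversed for Nqo1 without LDL replicate 1 (-0.037, in a range from -0.037 to 0.216 with 1 array left out), for Txnrd2 without saline replicate 2 (0.0033, in a range from -0.188 to 0.0033), and in slide row 2, with 1 array of each group and no test, for Txn1 (0.139), Txnrd2 (0.058) and Cbr3 (0.0669), while Prdx6 moved to 0.30 there. The cause was not tested. The count of the 10 genes that passed stayed at 0 in every alternative with a test except the replicate block. Their median log2 fold change lay between 0.12 and 0.25 with 1 array left out. The count with an unadjusted p below 0.05 ran from 1 within slide row 1, where 862 of 24225 features had such a p, to 5. It was 5 with normexp and quantile normalization (2158 features), quantile normalization alone (2073) and trended robust variances (1880). Over all features, the 29 calls became 16 higher and 39 lower with trended robust variances, 0 and 14 with the slide row as a block, 0 in all within slide row 1 or without the background filter, and with 1 array left out 0 to 6 higher and 0 to 23 lower. The count of genes with groups that did not overlap, with 1 array left out, was added after the data were seen. It was 5 or 6, while 7.28% to 15.7% of all features had every LDL array above every saline array. The count could not fall below 5, since leaving out an array cannot make separated groups overlap, so it says nothing about stability.

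With the replicate number as a block, 1 of the 10 genes passed as higher, namely Srxn1, whose log2 fold change of 2.22 is the same by construction (SE 0.10, adjusted p = 0.043, in a range from 0.043 to 1.00 over the alternatives), and 2 features were higher and 1 lower overall. Deviations of same-numbered arrays correlated across features at 0.215, -0.0428 and 0.178 for numbers 1 to 3. Those of differently numbered arrays ran from -0.226 to 0.0806. These values do not settle whether the samples are paired. The samples were not taken as paired, since the labels do not say that a number marks a shared experiment.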
